A study of Mus musculus and Homo sapiens with 12 samples.

Results

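The members described here are 2326 genes for which the ratio of m5C-IP to Input reads could be compared between human K562 cells and mouse embryonic stem cells (mESC). A gene was taken when its symbol, case ignored, occurred once in each annotation and when its IP libraries held at least 30 counts in total in each line. Symbols were shared by 16408 genes, of which 14227 had enough counts to be tested. The mESC floor alone kept 9072 genes and the K562 floor alone kept 2493, so the K562 IP libraries set most of the membership. Of the members, 329 had a K562 Input below the K562 floor in CPM and could enter only with IP above Input. The mESC floor acts in the same way on members with little mESC Input, which were not counted. Because of this, counts over the members are given beside the same counts over all genes tested.

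5-Methylcytosine (m5C) is a methyl mark on cytosine that NSUN-family enzymes and TRDMT1 place on RNA and that TET dioxygenases oxidise. Chromatin-associated RNA (caRNA) is the RNA that stays with chromatin when nuclei are fractionated, and holds nascent, intron-containing transcripts, long non-coding RNAs and repeat transcripts. In m5C methylated-RNA immunoprecipitation, fragmented RNA is pulled down with an antibody to m5C and sequenced next to the RNA before pull-down (Input). A log2 IP/Input above 0 means that a gene took a larger share of reads after the pull-down than before it. The fitted ratios below use TMM scaling and the CPM values do not, so a fitted ratio lies below the one read from CPM in both lines.

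The 12 libraries formed 4 groups of 3: mESC Input, mESC m5C-IP, K562 Input and K562 m5C-IP. All cells were wild type. The mESC line came from embryos and was grown in serum with LIF, CHIR99021 and PD0325901, and feeder cells were removed by passaging. K562, an established human leukaemia line labelled as lymphoblast cells from bone marrow, was grown in RPMI-1640 with puromycin. The antibody label of the libraries goes against their titles, since it reads "none" for the mESC IP and names the m5C antibody for the K562 Input, so the groups follow the titles. Each line is 1 species in 1 medium, so line, species and culture cannot be told apart. The labels do not say whether replicates were separate cultures, and p-values measure the spread between libraries, which may be technical.

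Gene counts were 29007088 to 34752646 in mESC Input and 10477119 to 11865285 in K562 Input, against 473398 to 592324 in mESC IP and 93110 to 111286 in K562 IP. Reads that mapped to more than 1 place made up 6.35% to 8.76% of the Input files and 26.8% to 32.4% of the IP files. K562 Input replicates 1 and 2, and 1 and 3, differed by no more than counting noise (chi-square per degree of freedom 0.911 and 0.912), whereas 2 and 3 did differ (1.06, p = 5.45e-06), and the 3 were kept as separate libraries. Of the 8 mESC markers, 7 had 35.4 to 793 CPM (the gene's count scaled to a common library total) in mESC Input, Esrrb being highest. Sox2 was at 0, as were all 103 mouse protein-coding genes that lie inside a transcribed gene on the same strand, whose reads were not counted. Of the 8 K562 markers, HBG2 and HBE1 were at 0 and the others had up to 372 CPM in K562 Input. Fn1, on the list of feeder and fibroblast genes, had 1879 CPM in mESC Input and Lum was at 0.

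The first comparison asked how far m5C recovery of the same genes is shared between the lines. It was little shared across members: Spearman's correlation between the log2 IP/Input of mESC and K562 was 0.087 and Pearson's r 0.121, a description over 2326 genes that share their libraries. Members are selected on IP counts, which enter both ratios, and the correlation was not computed over all genes tested. The levels themselves were closer, with rank correlations of 0.47 for Input and 0.59 for IP, both in CPM per kb of gene body. Over all members the median log2 IP/Input was -0.98 in mESC and -0.43 in K562, and the median difference, K562 minus mESC, was 0.51, against 0.16 over all genes tested. The zero of this difference depends on how libraries are scaled. With RLE scaling it lies at 0.44 of the scale used here (TMM), and with library size alone at 0.31, so a difference under about 0.44 has no firm sign.

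**Figure D1:**
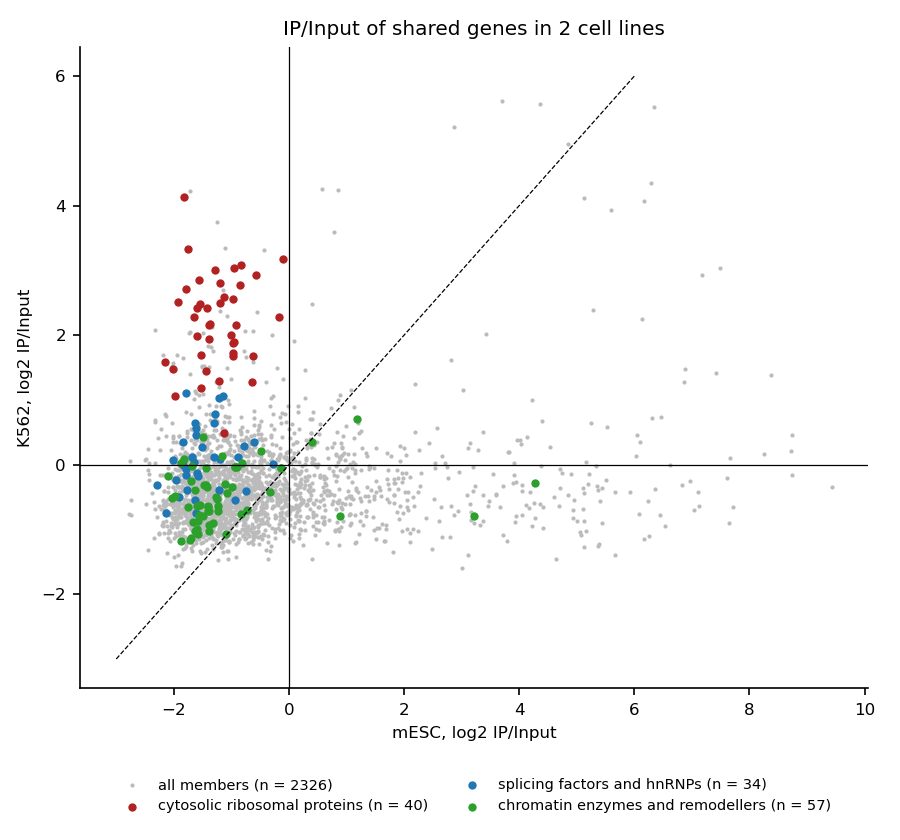
Log2 IP/Input of each of the 2326 members in mESC (x axis) and K562 (y axis), with TMM scaling; the dashed line marks equal values and colours mark 3 gene classes. The 40 cytosolic ribosomal proteins all lie left of 0 on the mESC axis and above 0 on the K562 axis, while the chromatin enzymes lie mostly below 0 in both.

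In the edgeR quasi-likelihood test of the difference (Benjamini-Hochberg over all genes tested, threshold 0.05), 899 members had a higher IP/Input in K562 and 418 a lower one. This is 38.7% and 18% of members, against 16.5% and 14.5% of all genes tested. The share of called members that were higher was 68.3%, and fell to 46.3% with RLE and 52.2% with library size alone. Under all 3 scalings, 516 members were higher in K562 (22.2%, against 10.2% of all genes tested) and the same 418 were lower (18%, against 14.5%).

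Taking each line on its own, 418 members were higher and 1641 lower in the IP in mESC (39.3% and 40.3% of all genes tested), and 163 and 852 in K562 (14.7% and 10.1%). Together, 652 members were lower in the IP in both lines (7.39% of all genes tested), and 430 of these did not pass the test for a difference. Only 34 were higher in both lines (10.3% of all genes tested). A further 117 were lower in mESC and higher in K562 (2.46%), and 137 were higher in mESC and lower in K562 (1.47%). Under all 3 scalings these 4 counts were 181, 34, 85 and 66. The count of members lower in both lines was also 396 without K562 m5C-IP replicate 1 and 392 without replicate 2. Over all genes tested, 1052 were lower and 1461 higher in both lines, against 350 and 209 in the 2 opposite directions. Under all 3 scalings those numbers were 262, 1456, 209 and 84.

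Genes of protein synthesis lay at the high end of the difference. Among cytosolic ribosomal proteins, the structural proteins of the ribosome, 71 of the 81 genes tested had a higher IP/Input in K562 and 0 a lower one, with a median difference of 3.19. The 40 that are members were all higher, also under all 3 scalings, from 1.61 for RPS19 to 5.96 for RPS18, with a median of 3.54. Their median log2 IP/Input was -1.25 in mESC and 2.23 in K562. The member count is no support for the K562 side: the floor of 30 counts equals 96.1 CPM over the K562 IP libraries, and all 40 had less than that in K562 Input, so they could enter only with IP above Input. Among the 41 ribosomal proteins tested that are not members, 31 were higher in K562 and 0 lower, with a median of 2.66. In mESC, where a floor on IP counts does not favour IP below Input, every IP library stood below every Input library for 31 of the 40. As a share of all gene counts, the 81 genes went from 0.590% ± 0.0015 (SD, n = 3) in mESC Input to 0.308% ± 0.017 in mESC IP. In K562 they went the other way, from 0.204% ± 0.0018 in Input to 0.937% ± 0.067 in IP. The exact permutation test between lines gave p = 0.1 for the Input and for the IP share, two-sided, the smallest value that 3 against 3 allows.

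RPL3, a protein of the large ribosomal subunit (mouse chr15:80077791-80091868, human chr22:39312882-39320389, both minus strand), shows the pattern library by library. It had 357, 363 and 353 CPM in mESC Input and 192, 177 and 171 in mESC IP. In K562 it had 51.2, 52.1 and 52.6 CPM in Input and 241, 288 and 311 in IP. The IP was below Input in every mESC library and above it in every K562 library, with no overlap. The difference was 3.55 ± 0.25 (SE; edgeR adjusted p = 2.24e-12), or 11.7-fold. RPL5, of the same subunit, differed by 3.55 ± 0.27. Both genes belong to a family with many processed pseudogenes, whose reads unique counting can split, so their absolute levels are uncertain.

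Ribosomal protein messages are known for a pyrimidine-rich start. The mouse promoter entries from RefSeq (GRCm38.p6) allow a look at this, and the 4 ribosomal protein members with the highest summed IP level and a single entry are shown from 20 bases before the annotated start to 30 after it, all on the plus strand, with CTTTC in capitals:
Rpl5, chr5:107900508-107900557: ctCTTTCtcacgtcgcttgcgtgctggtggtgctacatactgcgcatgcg
Rpl4, chr9:64173367-64173416: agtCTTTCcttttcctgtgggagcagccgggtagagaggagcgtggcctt
Rplp0, chr5:115559447-115559496: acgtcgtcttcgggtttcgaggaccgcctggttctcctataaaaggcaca
Rpl12, chr2:32961692-32961741: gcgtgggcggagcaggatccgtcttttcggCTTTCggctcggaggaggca

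The differences of these 4 genes were 3.55, 4.29, 3.54 and 4.02, in that order, and Rplp0 had no CTTTC in its window. The marked CTTTC lies before the annotated start in Rpl5 and Rpl4 and after it in Rpl12. Whether the motif goes with the difference was not tested. CTTTC on either strand of this window occurred in 34.4% of 32 promoters of 28 ribosomal protein members with an entry, against 12.5% of all 32851 promoters in the table. Among members higher in K562 the share was 8.89% and among those lower 7.77%, over 979 and 515 promoters. Across all members the motif therefore was about as frequent in members of either direction.

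Translation factors followed the ribosomal proteins, with 15 of 21 members higher in K562, 2 lower and a median of 1.72 (13 higher under all 3 scalings; 25 of 55 tested). Of the 21, 8 had a K562 Input below the floor, EEF1A1 among them, and could enter only with K562 IP above Input. Among the 34 translation factors tested that are not members, 10 were higher in K562 and 1 lower, with a median of 1.52. EEF1A1, which carries aminoacyl-tRNA to the ribosome, had 355, 353 and 350 CPM in mESC Input and 180, 236 and 225 in mESC IP. Its K562 values were 56, 53.2 and 55 in Input and 667, 530 and 838 in IP, so that IP and Input were again apart in opposite directions. The difference was 4.45 ± 0.20, the second largest among called members with at least 100 IP counts in each line. EEF2, the elongation factor that moves the ribosome along the message, differed by 3.57 ± 0.21. EIF4G3, a scaffold of the cap-binding complex, went the other way, at -2.13 ± 0.16. It had 74.7, 81.3 and 80.7 CPM in mESC Input and 247, 274 and 265 in IP, and in K562 817, 800 and 813 in Input and 426, 674 and 591 in IP.

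**Figure D2:**
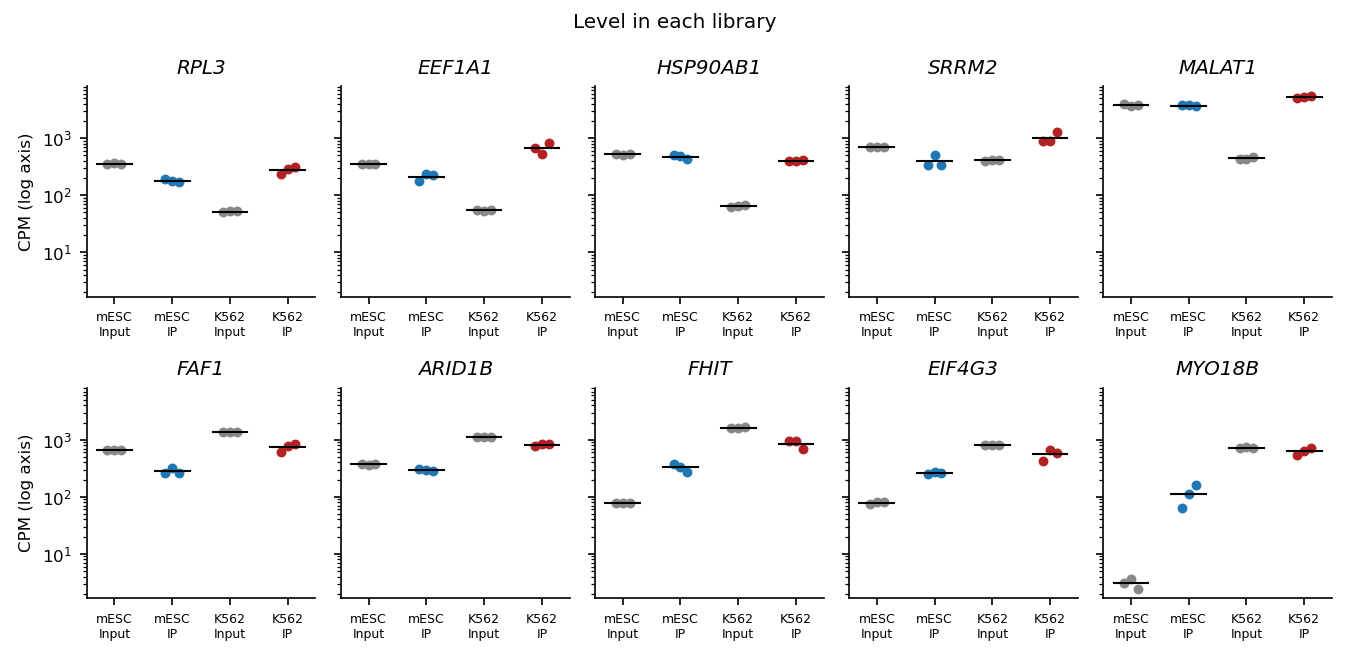
CPM (log axis) of 10 members in each of the 12 libraries; points are libraries and bars the mean of 3. RPL3, EEF1A1 and HSP90AB1 have IP above Input only in K562, FAF1 and ARID1B have IP below Input in both lines, and FHIT, EIF4G3 and MYO18B have IP above Input only in mESC.

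Chaperones, which fold other proteins, were higher in K562 for 14 of 19 members and lower for 1, with a median of 2.36 (13 under all 3 scalings; 26 of 69 tested). Of the 19, 10 had a K562 Input below the floor, and the 50 chaperones tested that are not members had a median of 0.24. HSP90AB1 differed by 2.92 ± 0.21 and HSP90AA1 by 2.87 ± 0.30. Of 6 glycolytic enzymes, 4 were higher and 1 lower. PFKP differed by 1.63 ± 0.27, whereas HK1, which phosphorylates glucose, differed by -1.22 ± 0.23. Ribosome assembly factors were higher for 9 of 15 and lower for 1, with a median of 0.99 (5 under all 3 scalings; 0.55 with RLE), led in IP level by the nucleolar proteins NCL (2.41 ± 0.23) and NPM1 (3.04 ± 0.23). Of the 15 assembly factors, 5 had a K562 Input below the floor, NCL among them. YBX1, a cold-shock protein that has been described as an m5C reader, differed by 3.55 ± 0.27.

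Mitochondrially encoded transcripts had the largest values of any class tested, with 11 of 16 higher in K562, 0 lower and a median of 5.99. Only 3 reached the floor of counts, and all 3 had a K562 Input below it, so they could enter only with K562 IP above Input. MT-CO1, the catalytic subunit of cytochrome c oxidase, had 242, 230 and 237 CPM in mESC Input and 90.8, 95.2 and 97.9 in mESC IP. K562 libraries had 33.5, 42.7 and 41.3 CPM in Input and 862, 836 and 967 in IP, a difference of 5.95 ± 0.21. The class took 0.108% of gene counts in mESC Input and 0.0318% in K562 Input, and 0.0502% and 0.512% in the IP. Transcripts of the mitochondrion are not bound to nuclear chromatin, and how much of this RNA was carried over in each line was not tested. For nuclear-encoded respiratory chain subunits, 4 of 5 members were higher and 0 lower, but 1 under all 3 scalings. Mitochondrial ribosomal proteins gave 1 of 2 higher and 0 lower.

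Splicing factors and hnRNPs were higher in K562 for 29 of 34 members, lower for 0, with a median of 1.66 (24 under all 3 scalings; 44 of 73 tested and 0 lower). Their median log2 IP/Input was -1.61 in mESC and 0.06 in K562. Of the 34, 8 had a K562 Input below the floor, and the 39 tested that are not members had a median of 1.59. SRRM2, a large scaffold of nuclear speckles, had 703, 711 and 710 CPM in mESC Input and 346, 503 and 341 in IP. Its K562 levels were 402, 410 and 422 in Input and 908, 899 and 1267 in IP, giving a difference of 2.25 ± 0.17. HNRNPA2B1, an RNA-binding protein of the hnRNP family, differed by 2.21 ± 0.25. DEAD and DEAH box helicases, which unwind RNA, were higher for 8 of 15 and lower for 0 (6 under all 3 scalings), with DDX17 at 1.72 ± 0.27 and DHX9 at 1.07 ± 0.26. DHX9 lost its call with RLE (0.63).

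The class of genes annotated as long non-coding RNA in both species was added after values were seen, and 9 of its 10 members were higher in K562 and 0 lower, 5 of them under all 3 scalings. Of the 47 tested, 16 were higher and 1 lower. GAS5, SNHG17 and MIR142HG had a K562 Input below the floor and could enter only with K562 IP above Input. FIRRE (1.63 ± 0.40), 1 of the 5, lost its call without K562 m5C-IP replicate 2 (1.04). MALAT1, a nuclear speckle RNA (mouse chr19:5795690-5802672, human chr11:65497640-65508073), was the best measured member, with 6170 IP counts in mESC and 1673 in K562. In mESC its IP and Input levels overlapped, at 3777, 3787 and 3638 CPM against 3956, 3682 and 3781. In K562 Input it had 431, 433 and 476 CPM and in IP 5123, 5383 and 5596, and the difference was 3.75 ± 0.08. NEAT1, the RNA that builds paraspeckles, differed by 2.57 ± 0.12 and GAS5, a snoRNA host RNA, by 3.00 ± 0.33. Of the snoRNA host class, 2 of 2 members were higher, 1 of them under all 3 scalings, and 7 of 15 genes tested. The 2 members had a K562 Input below the floor and could enter only with K562 IP above Input. PVT1 (0.54), DLEU2 (0.87) and KCNQ1OT1 (0.81) passed the test with TMM but not with RLE. Leaving out K562 m5C-IP replicate 1 also ended the calls of PVT1 (0.38), DLEU2 (0.81) and KCNQ1OT1 (0.78), and leaving out replicate 2 those of PVT1 (0.57) and KCNQ1OT1 (0.55). FTX (0.17 ± 0.31) did not pass.

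**Figure D3:**
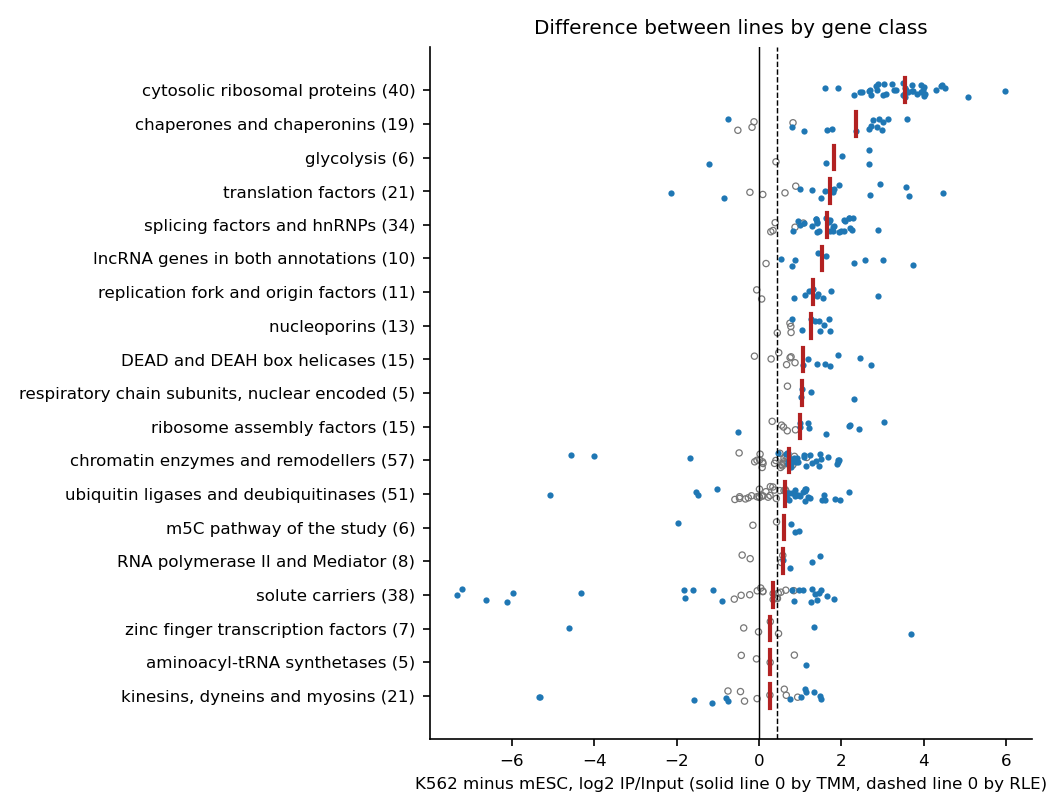
Difference of log2 IP/Input, K562 minus mESC, for each member (points; filled where the edgeR adjusted p was under 0.05) in classes with at least 5 members, with red bars at class medians. Cytosolic ribosomal proteins lie highest, at a median of 3.54, and kinesins, dyneins and myosins lowest of those shown, at 0.26; the dashed line shows where 0 falls with RLE scaling.

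Replication fork and origin factors were higher in K562 for 9 of 11 members and lower for 0 (6 under all 3 scalings), with POLA1, which makes the primers of DNA synthesis, at 1.12 ± 0.19 and POLE at 1.30 ± 0.22. Nucleoporins were higher for 9 of 13 and lower for 0 (7 under all 3 scalings). NUP214 was lower in the mESC IP (-1.31 ± 0.10) and did not pass the test in K562 (0.04 ± 0.10), where IP had 1042 to 1063 CPM and Input 830 to 874. Of 4 proteasome subunits, 2 were higher and 0 lower, and 0 were higher under all 3 scalings.

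Chromatin enzymes and remodellers were lower in the IP in both lines for 24 of 57 members, and 12 of these showed no call for a difference. Their median difference was 0.72, against 0.51 for all members, with 30 higher and 3 lower in K562, and 12 and 3 under all 3 scalings. The 12 are 21.1% of the class, against 22.2% of all members. The count of 30 was 19 without K562 m5C-IP replicate 3. ARID1B, a subunit of the BAF remodelling complex, had 370, 368 and 374 CPM in mESC Input and 308, 298 and 280 in IP. In K562 it had 1119, 1097 and 1114 CPM in Input and 787, 836 and 838 in IP, and the difference was 0.02 ± 0.12 with TMM. With RLE it was -0.41, which passed the test as lower in K562 (edgeR adjusted p = 0.0102). KAT6B, a histone acetyltransferase, differed by 0.93 ± 0.32, a call lost with RLE, without K562 m5C-IP replicate 1 (0.44) and without replicate 3 (0.94). Ubiquitin ligases and deubiquitinases were lower in both lines for 27 of 51 members, 13 of them with no call, and their median difference was 0.64 (24 higher and 4 lower; 10 and 4 under all 3 scalings). The 10 higher under all 3 scalings are 19.6% of this class, against 22.2% of all members. HUWE1 and UBR4, large ligases, were higher in K562 under all 3 scalings, at 1.84 ± 0.17 and 0.90 ± 0.14. For RNA polymerase II and Mediator, 4 of 8 were higher and 0 lower, 1 under all 3 scalings.

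Among members lower in the IP of both lines, PIK3CB, a catalytic subunit of phosphoinositide 3-kinase, was among the most alike. It had 157, 154 and 160 CPM in mESC Input and 131, 74.8 and 89.5 in IP. Its K562 levels were 748, 738 and 753 CPM in Input and 463, 440 and 387 in IP, so that IP stood below Input in every library of both lines. The log2 IP/Input was -1.11 ± 0.13 and -1.06 ± 0.14, with a difference of 0.05 ± 0.21 (-0.39 with RLE, not called). FAF1 (0.46 ± 0.14) and JMJD1C (0.58 ± 0.20) were lower in both lines with a call for the difference that RLE removed. Without K562 m5C-IP replicate 1 the difference of JMJD1C was 0.33 and without replicate 2 0.56, and that of FAF1 was 0.40 without replicate 2 and 0.36 without replicate 3, none of them called. The 430 members lower in both without a call had median spans of 103 kb in mouse and 144 kb in human, against 65.1 and 95.6 kb for all members.

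Classes without a common direction were those of transport and the cytoskeleton. Solute carriers, the membrane transporters, were higher in K562 for 12 of 38 members and lower for 11, and kinesins, dyneins and myosins, the molecular motors, for 7 and 6 of 21. Medians of these classes were 0.34 and 0.26, and both fell below 0 with RLE (-0.10 and -0.17). Zinc finger transcription factors were higher for 2 of 7 and lower for 1, and aminoacyl-tRNA synthetases, which charge tRNAs, higher for 1 of 5 and lower for 0. Their medians, 0.27 each, also fell below 0 with RLE.

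Most of the largest values in the lower direction came from genes with little mESC Input. SLC25A21, a mitochondrial carrier, had 1.59, 0.847 and 0.921 CPM in mESC Input and 84.5, 105 and 122 in mESC IP. K562 gave 1245, 1249 and 1244 CPM in Input and 852, 584 and 580 in IP, and the difference was -7.32 ± 0.29. CALN1 (-6.79), RCSD1 (-6.63), FBXL13 (-6.34), PCDH9 (-6.09), ARHGAP24 (-5.39), MYO18B (-5.32) and ZEB2 (-4.61) were alike, each with under 6 CPM in every mESC Input library. Mouse genes with a mean Input above 0 and under 0.3 CPM still carried 634 mESC IP counts per Mb of gene body, and those of 0.3 to 3 CPM 657. The corresponding human genes carried 29.1 and 28.3 K562 IP counts per Mb. SLC25A21 carried 359 and CALN1 452 mESC IP counts per Mb, below the level of genes without Input.

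**Figure D4:**
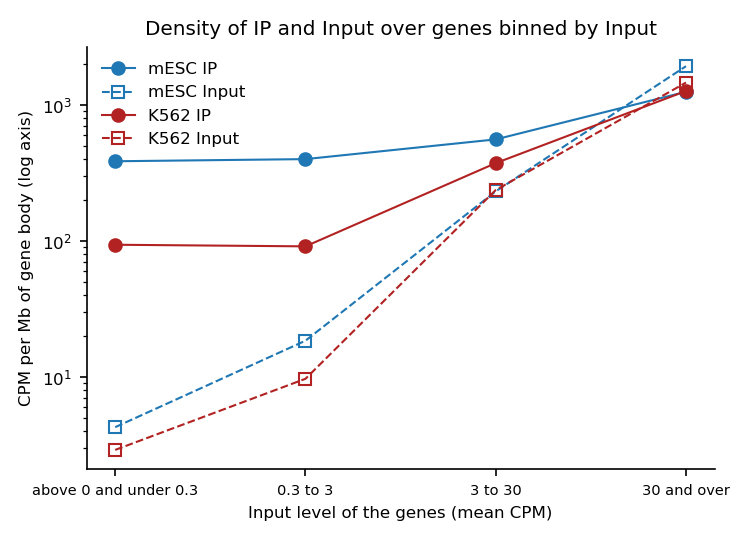
IP and Input density, in CPM per Mb of gene body (log axis), over all genes of each line binned by mean Input level. From the lowest to the highest bin Input density rises from 4.25 to 1917 in mESC and from 2.89 to 1452 in K562, whereas IP density rises from 383 to 1243 in mESC and from 93.3 to 1259 in K562.

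Of the 418 members lower in K562, 203 (48.6%) had a mESC IP density under 2 times that of genes without Input, against 71 of 899 (7.90%) of those higher in K562 and 437 of all 2326. The 418 had a median of 19.7 CPM in mESC Input and 227 in K562 Input, while their IP medians were 86.9 and 179 CPM. Those with a mESC Input below the mESC floor could enter only with mESC IP above Input, and their number was not counted. The 215 of the 418 at or above 2 times that density had a median difference of -1.64. Among named genes over that density, EIF4G3 carried 2019 mESC IP counts per Mb, HK1 2017, RCSD1 1929, SLC39A11 3006 (-1.11 ± 0.16) and TET3 1613. FHIT, a long gene at a fragile site, was higher in mESC (1.66 ± 0.10) and lower in K562 (-1.18 ± 0.10) but carried only 334 per Mb in mESC.

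Members higher in the IP of both lines were few (1.46%, against 10.3% of all genes tested, or 1461) and mostly near the same density. Their median Input was 7.21 CPM in mESC and 32.3 CPM in K562, the latter below the K562 floor of 96.1 CPM. Members with an Input below the floor of a line could enter only with IP above Input in that line. Of the 34, 19 were under 2 times the mESC level of genes without Input and 9 under 2 times the K562 level. Only 2 had at least 100 IP counts in each line. RASA3, a GTPase-activating protein, had 37.2, 36.2 and 37.1 CPM in mESC Input against 112, 98.6 and 99.6 in IP. In K562 it had 227, 234 and 209 CPM in Input and 611, 629 and 537 in IP, so IP stood above Input in every library and the difference was 0.07 ± 0.19. PNPLA7 was higher in mESC by 0.78 ± 0.19 and in K562 by 3.59 ± 0.22.

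The peak lists cover the 3 mESC IP libraries one by one, and 1711 merged regions occurred in all of them. They are not independent of the mESC ratio, since they come from the same libraries. Only 71 members (3.05%) held such a region, as did 7 of the 34 genes higher in both lines and 0 of the 40 ribosomal proteins. Of the 86 regions inside members, 35 lay on the member's own strand and 40 (46.5%) were at least 90% repeat-masked in the RefSeq genome, against 69.4% of 1629 regions on named chromosomes. In the members higher in both lines, 4 regions on the gene's strand lay in introns. Those of Ctnna3, Ptprn2 and Zfhx3 were wholly repeat-masked and nearly identical, and the first 2 are shown for this reason (GRCm38, plus strand, cytosines in capitals):
Ctnna3, chr10:63780232-63780381: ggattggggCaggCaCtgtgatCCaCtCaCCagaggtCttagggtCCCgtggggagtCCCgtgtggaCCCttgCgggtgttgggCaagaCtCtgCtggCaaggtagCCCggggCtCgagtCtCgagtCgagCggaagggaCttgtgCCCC
Ptprn2, chr12:116563316-116563502: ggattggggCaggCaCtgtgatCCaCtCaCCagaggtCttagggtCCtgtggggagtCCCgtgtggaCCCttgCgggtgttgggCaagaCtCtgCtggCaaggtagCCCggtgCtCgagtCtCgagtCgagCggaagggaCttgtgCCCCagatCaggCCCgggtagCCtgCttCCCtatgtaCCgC

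Over 150 bases, Ctnna3 and Ptprn2 were identical at 148, and Ctnna3 and Zfhx3 also at 148. CTNNA3, a catenin of cell junctions, had 12.1, 11 and 11.4 CPM in mESC Input and 397, 508 and 397 in IP. In K562 it had 2.44, 3.99 and 2.58 CPM in Input and 130, 126 and 75.2 in IP, from 35 counts. Its IP density was 459 counts per Mb in mESC and 18.9 in K562, below that of genes without Input in both lines. With its Input below the floor in each line, CTNNA3 could enter only with IP above Input in both. ZFHX3, a large zinc finger factor, was higher in both lines, with a difference of 3.69 ± 0.46 on 40 K562 IP counts. Its K562 Input of 5.55 CPM was below the K562 floor.

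Genes of the m5C pathway that the study examined reached the floor in 6 of 11 cases, with 3 higher in K562, 1 lower and a median of 0.60. TET1, a dioxygenase, had 1172, 1196 and 1182 CPM in mESC Input and 534, 626 and 576 in IP. It had 223, 222 and 217 CPM in K562 Input and 195, 180 and 172 in IP, with a difference of 0.88 ± 0.24. TET1, the methyltransferase NSUN2 (0.98 ± 0.33) and the paraspeckle protein PSPC1 (0.77 ± 0.29) lost their calls with RLE. The call of TET1 was also lost without K562 m5C-IP replicate 1 (0.83), that of NSUN2 without any 1 of the 3 K562 IP libraries (0.84 to 1.08), and that of PSPC1 without any 1 of 6 libraries (0.58 to 0.77). TET3 was lower in K562, at -1.97 ± 0.25, and kept its call. MBD5 (-0.15 ± 0.30) and ASXL1 (0.43 ± 0.31) did not pass.

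Gene architecture ordered the members in both lines, with opposite slopes. The floor is on IP counts over the whole gene, so a short gene enters only at a high IP density. The slopes are therefore not independent of the membership rule, and they were not computed over all genes tested. The rank correlation of gene span with log2 IP/Input was 0.21 in mESC and -0.56 in K562, and with the difference -0.47 (2326 genes; description only, since span goes with Input level and read number). From the shortest to the longest quintile of members, with median spans of 21.6 and 247 kb, the median difference went from 1.32 to -0.18. In K562 the median log2 IP/Input went from 0.16 to -0.76 and in mESC from -1.13 to -0.54. The share of the gene body that is exonic gave the mirror pattern, with rank correlations of -0.28 in mESC, 0.47 in K562 and 0.49 for the difference. In the quintile with the largest exonic share, 65.2% of members were higher in K562 and 4.95% lower, against 18.9% and 38.2% in the quintile with the smallest.

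**Figure D5:**
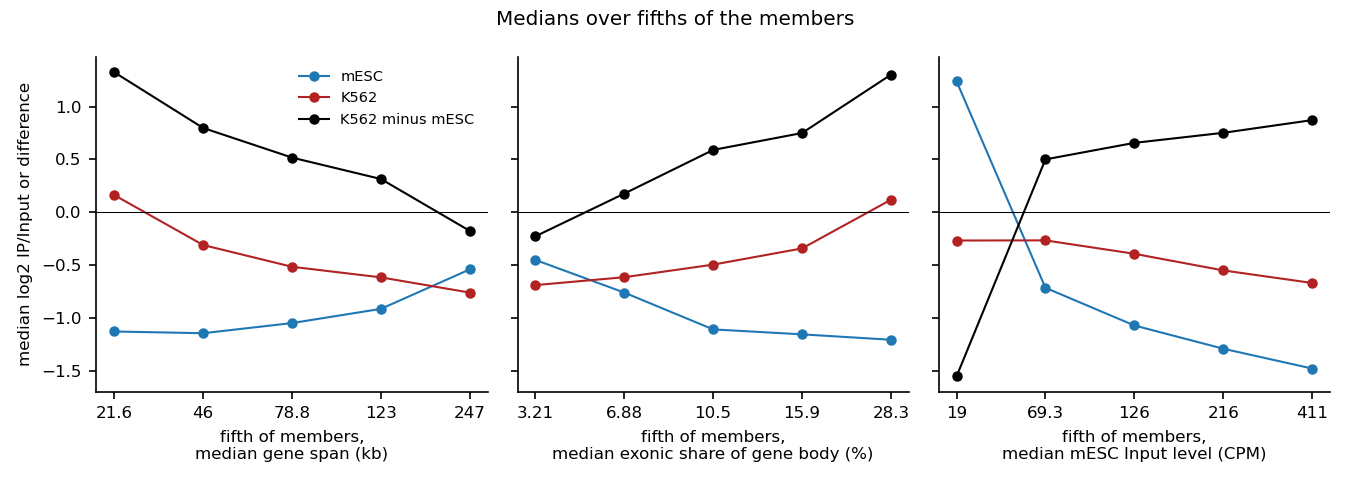
Median log2 IP/Input in mESC and K562, and median difference, over quintiles of the 2326 members ordered by gene span, exonic share of the gene body or mESC Input level; x labels give each quintile's median. The difference falls from 1.32 to -0.18 with span, rises to 1.30 with exonic share, and in the lowest quintile of mESC Input is -1.55. Since mESC Input is a term of the difference, that panel is not independent of it.

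All 40 ribosomal protein members fell in the shortest quintile, and all 40 lay above that quintile's median, by a median of 2.22. Measured the same way against members of like span, chaperones lay 1.35 above, splicing factors 0.62, translation factors 0.45 and chromatin enzymes 0.28. Against members of like mESC Input, ribosomal proteins lay 3.08 above, chaperones 1.70, translation factors 0.93 and splicing factors 0.87. Chromatin enzymes lay at -0.02 on that measure, with 27 of 57 above. These distances are not independent of the membership rule. All 40 ribosomal proteins, 10 of 19 chaperones and 8 of 21 translation factors had a K562 Input below the floor. So did 8 of 34 splicing factors and 2 of 57 chromatin enzymes. Such genes could enter only with K562 IP above Input. Without ribosomal proteins, translation factors and mitochondrial genes, the rank correlation of span with the difference over 2262 members was -0.43. Along mESC Input the lowest quintile stood apart, with 63.5% of members lower in K562, and from the second to the highest quintile the median difference went from 0.50 to 0.87. Gene-body GC content was related to the ratio within each line (rank correlation 0.37 in mESC for mouse GC and 0.58 in K562 for human GC) but hardly to the difference (-0.08 and 0.08).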

How the data were processed

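The deposited files of the 12 libraries hold raw counts of reads per gene. Per the labels and the study's methods, the authors trimmed reads (Trimmomatic 0.39), aligned them to mm10 or hg38 (HISAT2 2.1.0; SAMtools 1.16.1) and counted them over GENCODE genes. The counts behave as whole gene bodies by strand, with same-strand overlaps dropped. The deposited mESC peak files (MACS2) hold fold enrichment as a ratio, and −log10 p-values and q-values, per the file headers; only their positions were used. Spike-in reads were not used here. Summary lines of the count files that name no gene (19.0% to 71.7% of a file) were left out.

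From these counts, genes were matched by symbol and all 12 libraries were fitted in edgeR 4.0.16 (R 4.3.3; limma 3.58.1; TMM, filterByExpr, quasi-likelihood F test, two-sided, Benjamini-Hochberg over 14227 genes, threshold 0.05), with no replicate block. The difference is (K562 IP − Input) − (mESC IP − Input), with SE = |log2 difference|/√F. The lowest 3 counts of a library are worth 0.0863 CPM in the deepest and 32.2 CPM in the shallowest, which covers counting error only. Gene annotations were GENCODE M21 and v44, to which 99.9% and 99.1% of identifiers matched. Members, gene classes and tests were chosen with earlier results of these data known. Named genes are the best measured of each class, the largest differences in each direction among members with at least 100 IP counts in each line, the most alike in both lines and the m5C pathway, with 16 others named after their values were seen. Alternatives were RLE and library-size scaling, DESeq2 1.42.0, GC correction, thinned Input, a replicate block, other floors and leaving out each library. Gene-body GC, summed K562 Input, the IP density floor and TMM within each line were chosen after seeing the data. Scripts were tested on simulated data. A gene and a gene class that were fitted with the others are not reported here.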

Additional observations from a re-analysis of the deposited data

Results flagged for a closer look

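Each result here has a difference between the lines that passed the test of the difference itself (edgeR, adjusted p under 0.05). Over members, 899 were higher in K562 and 418 lower, 117 were lower in mESC and higher in K562, and 137 the reverse.

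Among genes of protein synthesis the difference of log2 IP/Input, K562 minus mESC, was 3.55 for RPL3, 3.55 for RPL5, 4.45 for EEF1A1, 3.57 for EEF2 and -2.13 for EIF4G3. NCL had 2.41, NPM1 3.04, HSP90AB1 2.92, HSP90AA1 2.87, SRRM2 2.25, HNRNPA2B1 2.21 and YBX1 3.55. MT-CO1 had 5.95, MALAT1 3.75, GAS5 3.00 and NEAT1 2.57. RPL3, RPL5, EEF1A1, NCL, HSP90AB1, HSP90AA1, MT-CO1 and GAS5 had a K562 Input below the K562 floor of 96.1 CPM. They could enter only with K562 IP above Input.

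In the other direction, SLC25A21 had -7.32, CALN1 -6.8, PCDH9 -6.09, ARHGAP24 -5.39, MYO18B -5.32, ZEB2 -4.61, FHIT -2.84 and SLC39A11 -1.11. Of these, all but FHIT and SLC39A11 had a mESC Input below the mESC floor and could enter only with mESC IP above Input. SLC25A21, CALN1, PCDH9, ARHGAP24 and FHIT carried fewer mESC IP counts per Mb than mouse genes with under 0.3 CPM of Input, and the part of that density in these values was not tested.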

How the results depend on the processing

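Members higher in K562 numbered 516 with RLE, 588 with library size and 349 with Input thinned to IP depth, and members lower 674 with DESeq2. Over all genes, 1456 (RLE) and 665 (thinned) were higher and 3183 (DESeq2) and 1134 (thinned) lower, against 2341 and 2062. Members lower in both lines numbered 312 (RLE), 181 (library size), 405 (exonic GC), 375 (gene-body GC) and 51 (thinned), and 392 to 730 with 1 library left out, lowest without K562 m5C-IP replicate 2 and 396 without replicate 1. Members higher in both numbered 59 (RLE), 74 (library size) and 92 (DESeq2), those higher in mESC and lower in K562 89 (library size) and 29 (thinned), and the reverse 64 (thinned). Chromatin enzymes higher in K562 numbered 12 (RLE), 13 (library size), 16 (DESeq2), 9 (thinned) and 19 to 34 with 1 library left out. Other floors hold fewer members by construction. With at least 100 IP counts in each line, 127 members were higher, 77 lower, 98 lower in both, 2 higher in both, 40 higher in mESC and lower in K562 and 20 the reverse, with 2 chaperones, 10 chromatin enzymes, 4 splicing factors and 2 translation factors higher in K562. With a floor alike in CPM these were 420 higher, 184 lower, 20 higher in both, 73 and 37 opposite, and 7 chaperones, 4 ribosomal proteins, 18 splicing factors and 8 translation factors. With members chosen by Input, 96 were lower, 2 higher in both, 29 and 39 opposite, and 8 chaperones higher. With the IP density floor, 215 were lower, 15 higher in both and 46 higher in mESC and lower in K562. Among genes reported here with a call in either fit, signs turned for ARID1B (-0.41 with RLE and DESeq2), DENND1A (-0.93) and PSPC1 (-0.046) with exonic GC, and MED13L (-0.053, thinned); the cause was not tested. With no call in either fit, RLE also turned PIK3CB (-0.39), RASA3 (-0.37), DENND1A (-0.29), FTX (-0.27), FARS2 (-0.17) and ASXL1 (-0.013). Of 1508 alternative values for 66 named genes, 1390 kept their call or lack of one, 105 lost the call and 7 gained it. The other 6 turned sign with a call in either fit. The 1390 include values that turned sign without a call in either fit. Same-numbered IP and Input libraries correlated by at most 0.0622, which does not decide whether they came from the same RNA. In mESC, but not in K562, every library correlated best with its own number. A replicate block gave 921 members higher and 390 lower. Depth is lowest in the K562 IP, at 93110 to 111286 gene counts.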
